A study of Rattus norvegicus with 18 samples.

Results

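The unfolded protein response was followed through 36 genes named by symbol: chaperones and folding enzymes of the endoplasmic reticulum (ER), factors of ER-associated degradation, the stress sensors with Xbp1, and the ATF4-CHOP branch. Of these, 31 were found among the 18420 gene rows of the deposited table, and Hspa13, Ero1l, Edem1, Derl2 and Derl3 were not analysed here. The 31 comprised 16 chaperones and folding factors, 5 degradation factors, 4 sensors and regulators, and 6 genes of the ATF4-CHOP branch. Testing required 10 or more normalised reads in 6 or more libraries, which Chac1 did not reach, so 30 members were tested.

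The unfolded protein response adjusts the folding capacity of the ER to its load of client proteins. The sensors IRE1 (encoded by Ern1), PERK (Eif2ak3) and ATF6 (Atf6) are held in check by the chaperone BiP (Hspa5) and are released when unfolded proteins accumulate. IRE1 splices Xbp1 messenger RNA and ATF6 is cut to an active factor, and both then raise chaperones and degradation factors, whereas PERK slows translation and favours ATF4 and, further on, CHOP (Ddit3), a factor linked to cell death. In the kidney, tubule cells that reabsorb filtered protein and podocytes are known to mount this response in proteinuric disease. Counts per gene show neither Xbp1 splicing nor the activation of the sensor proteins.

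Messenger RNA of kidney cortex was sequenced in 18 libraries from Zucker diabetic fatty (ZDF) rats, 6 per group. The RYGB group was fa/fa and diabetic and had undergone Roux-en-Y gastric bypass, in which a small stomach pouch is joined directly to a lower stretch of the small intestine. The disease group was fa/fa and diabetic, and the healthy control group was lean, non-diabetic and fa/+, so that every group carried at least 1 fa allele of the leptin receptor gene. The labels give neither age nor sham surgery, and they do not state that the libraries of a group are from different animals, so p-values measure the spread between libraries.

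Values are read counts that the authors divided by 1 size factor per library, called normalised reads here. Per library, the reads assigned to genes numbered 12470525 to 42713246 in RYGB, 8157977 to 37142922 in disease, and 8116638 to 34169198 in healthy control. The values are not divided by gene length, so levels are compared between libraries and not between genes. Of 12 proximal tubule markers 11 were in the table, with a summed level of 226808 to 381299 normalised reads in RYGB, 161880 to 355547 in disease and 219660 to 372798 in healthy control, so the defining markers of the labelled tissue were present. Reads outside annotated genes were most frequent in 3 libraries, at 39.7% of counted reads in disease replicate 1, 38.6% in disease replicate 2 and 43.2% in healthy control replicate 1, against at most 34.4% elsewhere. In bulk tissue, fewer cells of a type and less RNA per cell cannot be told apart.

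Promoter sequence, from 250 bases before to 50 bases after the start, was taken from RefSeq for the GRCr8 assembly and covered 24 of the 31 members. The ER stress response element (CCAAT, any 9 bases, CCACG), bound by ATF6 and XBP1 together with NF-Y, was searched on both strands and occurred in 7 of these 24 (29.2%), against 21 of all 27457 genes with a promoter (0.0765%). Those 7 were Hspa5, Hsp90b1, Calr, Canx, Dnajc3, Creld2 and Xbp1. The related ER stress response element II (ATTGG, any base, CCACG) was in Dnajb11, Herpud1 and Hyou1, against 17 of all genes (0.0619%). TGACGTG, the core of the unfolded protein response element, was in Hspa5 and Hyou1 (2.02% of all genes), overlapping element II in Hyou1. TGATGNAA, a short form of the C/EBP-ATF element used by ATF4 and CHOP, was in Chac1, Trib3 and Herpud1 (4.16% of all genes). The members were listed as genes of this response and the elements as those of its factors, so the shares are no test of enrichment. A match describes the letters only. The windows around the matches are shown for 6 of the genes described in the following, in the direction of the gene, with the fixed letters of the element in capitals. Hsp90b1 holds the element in both orientations, and Herpud1 shows element II.
Hspa5 (chr3:38452943-38453015, plus strand): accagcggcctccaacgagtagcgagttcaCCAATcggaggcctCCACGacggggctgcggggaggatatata
Hsp90b1 (chr7:23012317-23012499, minus strand): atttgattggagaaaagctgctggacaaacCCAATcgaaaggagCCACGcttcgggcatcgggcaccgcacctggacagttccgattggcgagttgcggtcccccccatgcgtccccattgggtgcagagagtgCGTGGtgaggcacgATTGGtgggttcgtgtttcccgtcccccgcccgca
Canx (chr10:35158039-35158107, minus strand): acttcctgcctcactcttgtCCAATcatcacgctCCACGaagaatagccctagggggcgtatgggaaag
Dnajc3 (chr15:102432504-102432582, plus strand): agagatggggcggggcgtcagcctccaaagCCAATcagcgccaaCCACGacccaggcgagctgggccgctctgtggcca
Xbp1 (chr14:84604528-84604606, plus strand): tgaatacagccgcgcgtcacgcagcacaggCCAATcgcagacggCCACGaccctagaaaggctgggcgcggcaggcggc
Herpud1 (chr19:10614791-10614861, minus strand): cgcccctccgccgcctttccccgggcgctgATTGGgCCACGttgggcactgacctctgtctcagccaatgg

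None of the 30 members was called in any comparison by limma at an adjusted p below 0.05 (Benjamini-Hochberg over 13988 genes). In disease against healthy control, limma called 0 of 30 members, against 1.61% of all genes, and edgeR called 0 (1.6% of all genes) and DESeq2 called 0 (2.93% of all genes). At an unadjusted p below 0.05 there were 6 members (20%), against 11.1% of all genes, and all of them (Hspa5, Pdia4, Sel1l, Xbp1, Eif2ak3 and Ppp1r15a) had negative fold changes. In RYGB against disease, limma called 0 members (3.95% of all genes), edgeR called 0 (4.5%) and DESeq2 called 2 (Xbp1 and P4hb), which was 6.67% of members against 7.85% of all genes. The unadjusted count was 6 members (20%), against 20.7% of all genes, with positive fold changes in all (P4hb, Herpud1, Syvn1, Xbp1, Ern1 and Ppp1r15a). In RYGB against healthy control, limma called 0 members (4.44% of all genes), edgeR called 0 (6.05%) and DESeq2 called 2, Hspa5 and Eif2ak3 (6.67% of members, against 11.5% of all genes). Here 11 members (36.7%) had an unadjusted p below 0.05, against 26.2% of all genes, and all 11 had negative fold changes. Other limma settings called more members lower in this comparison. With the compared groups fitted alone they were 4 of 30, beside 1442 of all 13988 genes. Under quantile normalisation they were also 4 of 30. The total over all genes for that setting is not given here, so this count has no share to be read against. The comparisons share groups of libraries, and their values are therefore not independent of each other.

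The fold changes of the members nevertheless lay mostly on the lower side of healthy control. In disease against healthy control the log2 fold change was negative for 26 of 30 members, against 49.6% of all genes, with a median of -0.22 beside 0.0016 over all genes. The median was -0.25 for the folding group (15 of 16 negative), -0.12 for degradation, -0.30 for the sensors (4 of 4 negative) and -0.05 for the ATF4-CHOP branch. In RYGB against disease the median over members was -0.02, beside -0.00087 over all genes, with -0.09 for folding, 0.11 for degradation, 0.26 for the sensors and -0.06 for the ATF4-CHOP branch. In RYGB against healthy control the median was -0.24, beside -0.013 over all genes, and the folding group stood at -0.35 (14 of 16 negative). Degradation was at 0.06, the sensors at -0.04 and the ATF4-CHOP branch at -0.0036 in the same comparison. These smaller medians had no fixed sign. Degradation was at -0.09 with the share of reads outside genes as a covariate, the sensors ran from -0.10 (without healthy control replicate 4) to 0.0086 (without healthy control replicate 2), and the ATF4-CHOP branch from -0.09 (without healthy control replicate 1) to 0.085 (without RYGB replicate 5). The ATF4-CHOP median also reached 0.0074 in RYGB against disease without RYGB replicate 1, and 0.005 in disease against healthy control without healthy control replicate 4. With 1 library left out, the degradation median in disease against healthy control lay between -0.23 and -0.05. These medians are descriptions, with no test over the list.

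The precision allows most 2-fold differences to be bounded. The 95% interval of the log2 fold change lay within -1 and 1 for 27 of 30 members in disease against healthy control (all but Sdf2l1, Trib3 and Hspa5). It did so for 29 of 30 in RYGB against disease (all but Herpud1), and for 27 of 30 in RYGB against healthy control (all but Sdf2l1, Hspa5 and Hsp90b1). The median half-width of the interval was 0.34 on the log2 scale. For a typical member, the interval of a smaller difference included 0. The half-width is not the limit of detection after adjustment, since some larger differences were not called by limma. Examples are Xbp1 at 0.56 in RYGB against disease and Hspa5 at -0.82 in RYGB against healthy control.

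**Figure D1:**
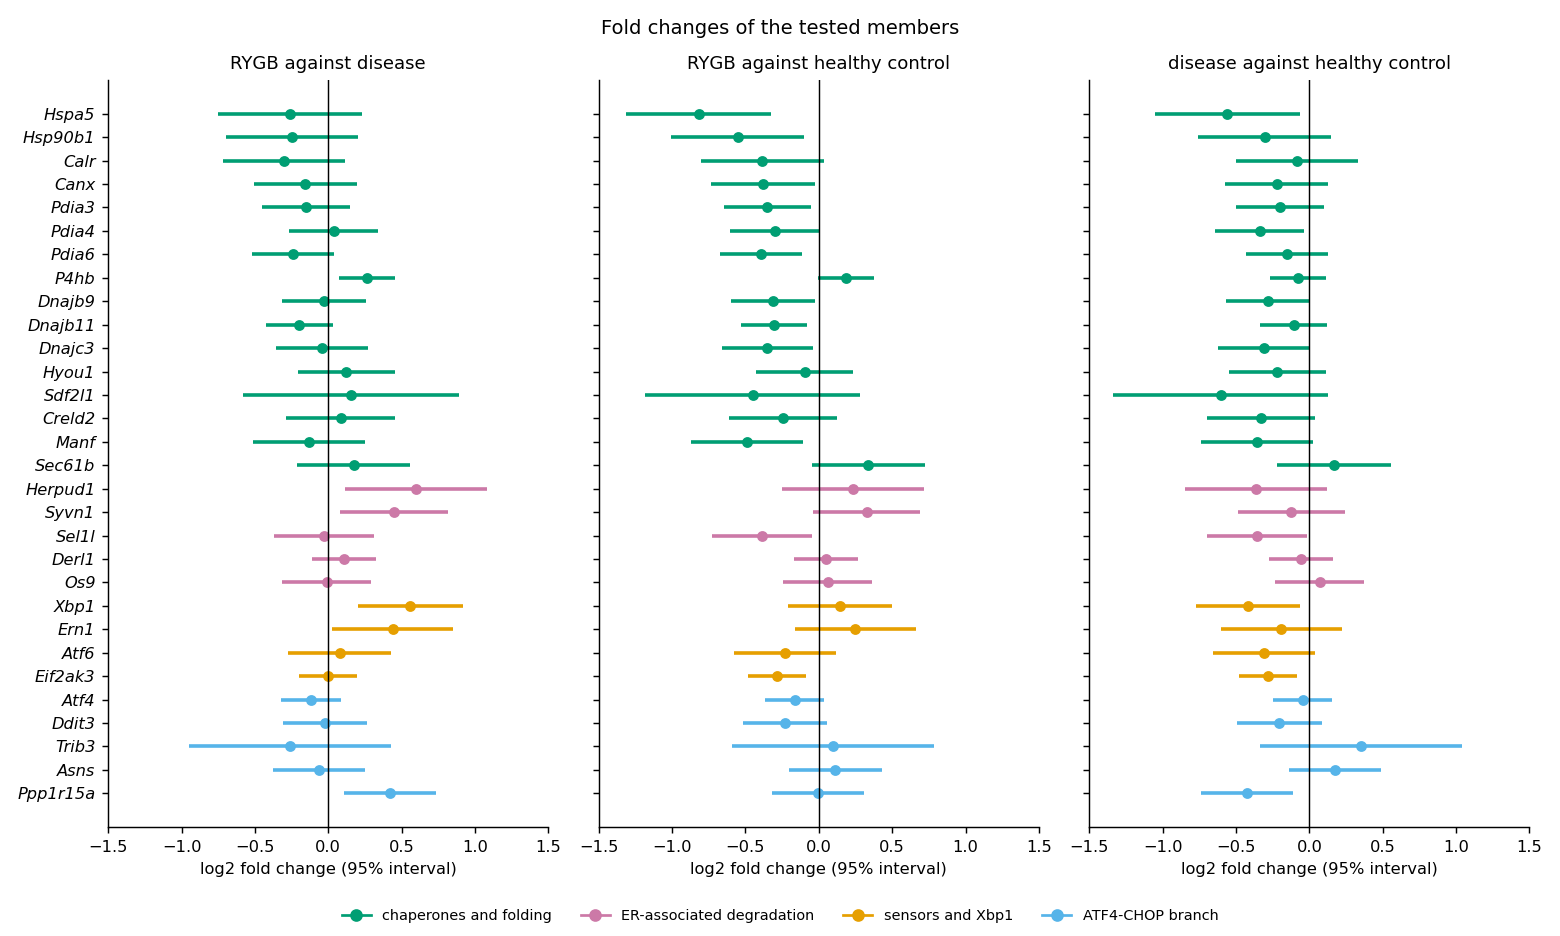
Log2 fold change of each tested member (points) with its 95% interval (lines) in RYGB against disease, RYGB against healthy control and disease against healthy control, coloured by role; values left of 0 are lower in the group named first. The folding group lies mostly left of 0 against healthy control, with medians of -0.35 in RYGB and -0.25 in disease, while Herpud1, Syvn1 and Xbp1 lie right of 0 in RYGB against disease.

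Hspa5, which encodes BiP, the Hsp70 chaperone of the ER lumen, had 6998 to 17228 normalised reads in RYGB (median 14172), 10084 to 26972 in disease (median 14937) and 15410.2 to 26955 in healthy control (median 23246). Every healthy control library except replicate 4 lay above every RYGB library, and the disease libraries spanned both. The log2 fold change of RYGB against healthy control was -0.82 ± 0.24 (SE), or 0.567-fold with a 95% interval of 0.403 to 0.797, and missed the threshold (limma adjusted p = 0.0517). In disease against healthy control it was -0.56 ± 0.24 (limma adjusted p = 0.357), and in RYGB against disease -0.26 ± 0.24 (limma adjusted p = 0.553). The RYGB against healthy control value sat at the threshold: over 28 alternative settings the adjusted p ranged from 0.0167 to 0.109, and 8 of them called Hspa5 lower. These were DESeq2 (adjusted p = 0.0167), quantile normalisation (limma adjusted p = 0.0251), the compared groups fitted alone (limma adjusted p = 0.0274) and a replicate block (limma adjusted p = 0.0462). The others were limma without healthy control replicate 4 (adjusted p = 0.0202), disease replicate 6 (0.0292), disease replicate 5 (0.0454) or disease replicate 2 (0.0487). The block spanned all 3 groups, although the numbers were not taken to pair RYGB. Without a disease library the fold change stayed at -0.82, since disease is not in this comparison. Calls over all genes also rose from 621 in several settings. They were 1057 without disease replicate 6, 1442 with the groups fitted alone, 1501 without healthy control replicate 4 and 1602 in DESeq2.

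Hsp90b1, the ER member of the Hsp90 family (GRP94), had 9657 to 20014 normalised reads in RYGB (median 16541), 11384 to 32227 in disease (median 17763) and 19696 to 27914 in healthy control (median 22638). RYGB replicate 6 was the only RYGB library to reach into the healthy control range. The log2 fold change of RYGB against healthy control was -0.55 ± 0.22 (limma adjusted p = 0.122). Disease libraries were the most spread, with a coefficient of variation of 39.7%, against 21.5% in RYGB and 13.5% in healthy control. With the compared groups fitted alone, the RYGB against healthy control difference was called (limma adjusted p = 0.0432), in a range of 0.0432 to 0.377 over 28 settings.

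Calr and Canx encode the lectin chaperones calreticulin and calnexin, which hold newly made glycoproteins, and Pdia3 encodes the disulfide isomerase that works beside them. Pdia3 had 10817 to 15937 normalised reads in RYGB (median 14781), 11256 to 20738 in disease (median 15615) and 15963 to 20193 in healthy control (median 17654). The RYGB and healthy control libraries of Pdia3 did not overlap, by a narrow gap. It was the single member without overlap in RYGB against healthy control (3.33% of members, against 3.22% of all genes). Its log2 fold change there was -0.35 ± 0.14 (limma adjusted p = 0.136). Quantile normalisation called it (limma adjusted p = 0.0371), in a range of 0.0371 to 0.428 over 28 settings.

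Calr had 12255 to 28432 normalised reads in RYGB (median 19815), 16137 to 35541 in disease (median 22478) and 21984 to 30898 in healthy control (median 24247). The groups overlapped throughout. Its log2 fold change of -0.30 ± 0.20 in RYGB against disease was the lowest of the folding group (limma adjusted p = 0.399). Canx stood at -0.38 ± 0.17 in RYGB against healthy control (limma adjusted p = 0.164), with 15631 to 22551 normalised reads in RYGB and 21582 to 30444 in healthy control.

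Among the other disulfide isomerases, P4hb, which also serves as a subunit of collagen prolyl 4-hydroxylase, had its highest mean in RYGB. It had 13452 to 14393 normalised reads in RYGB (median 14034), 10282 to 12849 in disease (median 11631) and 10900.3 to 14164 in healthy control (median 12274). Every RYGB library lay above every disease library, and healthy control spanned both. It was the single member without overlap in RYGB against disease (3.33% of members, against 2.6% of all genes), and 0 members were without overlap in disease against healthy control (1.24% of all genes). The log2 fold change of RYGB against disease was 0.26 ± 0.09, or 1.2-fold (limma adjusted p = 0.108). DESeq2 called it (adjusted p = 0.0102), in a range of 0.0102 to 0.342 over 28 settings. Of 8 fibroblast markers, 5 were called lower in RYGB against disease, where 3.95% of all genes were called in either direction. Their summed levels were 5086 to 7856 in RYGB and 9689 to 12869.7 in disease. The part of fibroblasts in the P4hb values was not tested.

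Pdia6 and Pdia4 went with the chaperones. Pdia6 had 3292 to 5164 normalised reads in RYGB (median 3903), 3575 to 6465 in disease (median 4585) and 4843 to 5882 in healthy control (median 5239). Its log2 fold change of RYGB against healthy control was -0.39 ± 0.13 (limma adjusted p = 0.087), and it was called by quantile normalisation (limma adjusted p = 0.0374) and with the compared groups fitted alone (limma adjusted p = 0.0406), in a range of 0.0374 to 0.327. Pdia4 stood at -0.34 ± 0.15 in disease against healthy control (limma adjusted p = 0.371).

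The J-domain proteins Dnajb9, Dnajb11 and Dnajc3 deliver clients to BiP and stimulate its ATPase. Against healthy control, their log2 fold changes in RYGB were -0.31 ± 0.14, -0.31 ± 0.11 and -0.35 ± 0.15, with limma adjusted p-values of 0.164, 0.0972 and 0.148. Calls came from quantile normalisation for Dnajb11 (limma adjusted p = 0.0484, range 0.0484 to 0.327) and the compared groups fitted alone for Dnajc3 (limma adjusted p = 0.0499, range 0.0499 to 0.389). Hyou1, a nucleotide exchange factor for BiP, stood at -0.10 ± 0.16 in RYGB against healthy control (limma adjusted p = 0.711) and at -0.22 ± 0.16 in disease against healthy control (limma adjusted p = 0.655).

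Manf, a secreted BiP-binding factor, had 1201 to 2191 normalised reads in RYGB (median 1800.1), 1148 to 2512 in disease (median 1912) and 1727 to 2849 in healthy control (median 2531). The groups overlapped, and RYGB against healthy control stood at -0.49 ± 0.18 (limma adjusted p = 0.11). Creld2, a secreted ER stress-inducible protein, stood at -0.25 ± 0.18 in the same comparison (limma adjusted p = 0.371).

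Sdf2l1, a partner of the BiP cochaperone complex, varied most within the folding group in RYGB and in healthy control, with coefficients of variation of 53.5% and 37.6%. In disease its coefficient of 34.8% was below that of Hsp90b1 (39.7%) and Hspa5 (39.0%). It had 101 to 455 normalised reads in RYGB (median 214), 149 to 307 in disease (median 175) and 113 to 469.8 in healthy control (median 339.6). Healthy control replicate 4 lay below the others of its group, which held 300.2 or more. The log2 fold change of disease against healthy control was -0.61 ± 0.35 (limma adjusted p = 0.564), the lowest of the folding group. Sec61b, a subunit of the channel through which proteins enter the ER, was the highest of the folding group against healthy control, at 0.34 ± 0.19 in RYGB (limma adjusted p = 0.248) and 0.17 ± 0.19 in disease (limma adjusted p = 0.797). Its levels were 855 to 1634 normalised reads in RYGB (median 1253), 726 to 1617 in disease (median 1144) and 794 to 1225 in healthy control (median 965).

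**Figure D2:**
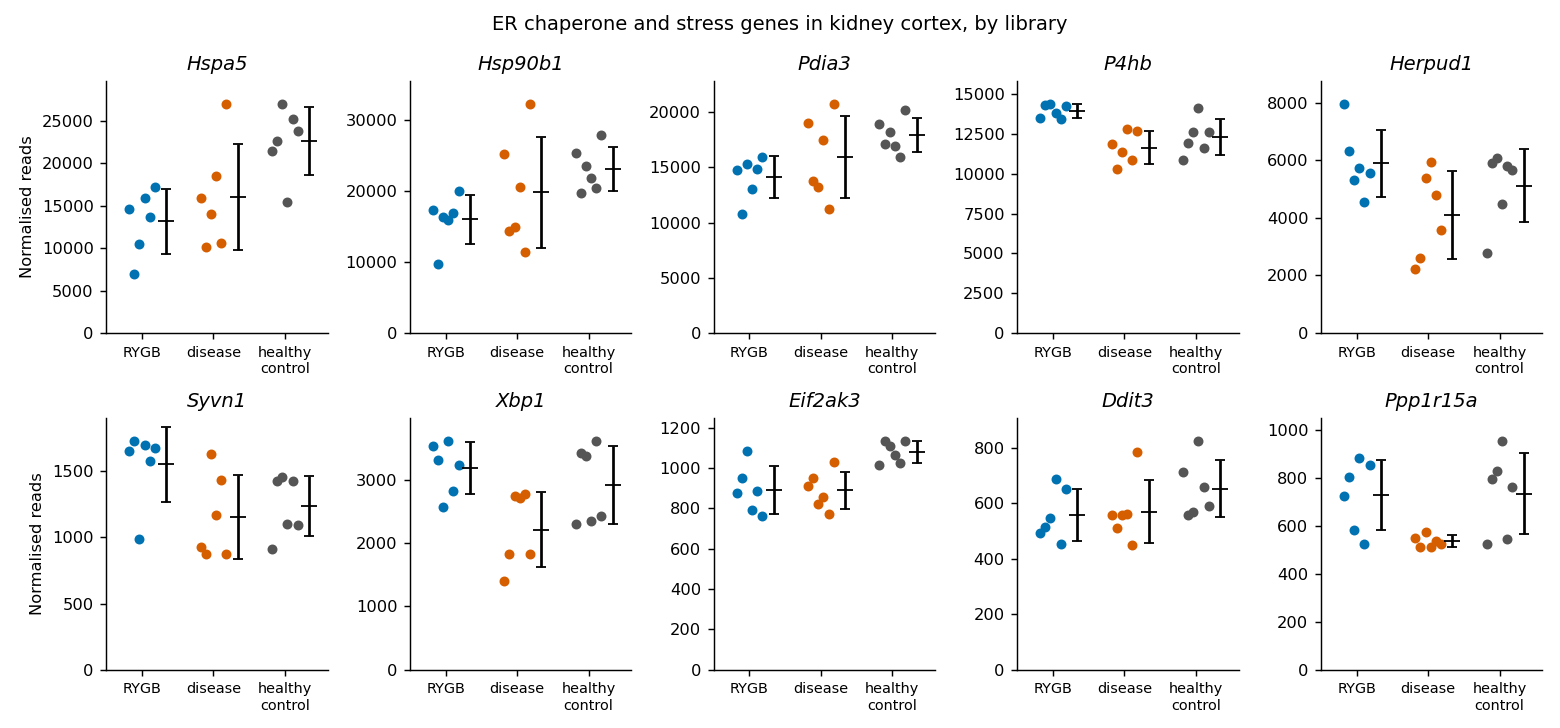
Normalised reads of 10 members (vertical axes, from 0) in each of the 18 libraries (points), with the mean and SD of each group of 6 beside them. Hspa5 has medians of 14172 in RYGB, 14937 in disease and 23246 in healthy control, P4hb separates RYGB from disease, and Ppp1r15a lies within 512 to 577 in disease.

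ER-associated degradation pulls misfolded proteins back to the cytosol, where the proteasome removes them. Herpud1, a scaffold of the retrotranslocation complex, had 4541 to 7956 normalised reads in RYGB (median 5644), 2239.8 to 5944 in disease (median 4193) and 2796 to 6066 in healthy control (median 5717). The lowest values of all 18 libraries belonged to disease replicates 1 and 2 and healthy control replicate 1, the 3 libraries with the most reads outside genes. In RYGB against disease its log2 fold change was 0.60 ± 0.23, or 1.51-fold (limma adjusted p = 0.149). It was 0.22 with the share of reads outside genes as a covariate (limma adjusted p = 0.544) and 0.26 without those 3 libraries (limma adjusted p = 0.522), and the adjusted p lay between 0.0848 and 0.544 over 28 settings. All 3 libraries were outside RYGB and the share differed between groups, so both settings can also take away part of a group difference. Herpud1 stood at -0.36 ± 0.23 in disease against healthy control (limma adjusted p = 0.612). That value was -0.19 without the 3 libraries, -0.21 without disease replicate 1 and -0.53 without healthy control replicate 1. With the share of reads outside genes as a covariate it was -0.41 (limma adjusted p = 0.118), and so not smaller.

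Syvn1 encodes HRD1, the ubiquitin ligase of the degradation complex. It had 986 to 1731 normalised reads in RYGB (median 1664), 876 to 1633 in disease (median 1049) and 916 to 1456 in healthy control (median 1263). RYGB replicate 3 was far below the rest of its group, which started at 1579. In RYGB against disease the log2 fold change was 0.45 ± 0.18 (limma adjusted p = 0.153). Without RYGB replicate 3 it was 0.57 and was called (limma adjusted p = 0.0449), and with the share of reads outside genes as a covariate it was 0.23 (limma adjusted p = 0.56), in a range of 0.0449 to 0.56 over 28 settings. Against healthy control, Syvn1 in RYGB stood at 0.33 ± 0.18 (limma adjusted p = 0.24).

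Sel1l, the adaptor that stabilises HRD1, had its highest mean in healthy control. It had 1278 to 1919 normalised reads in RYGB (median 1450.2), 1164 to 2242 in disease (median 1575) and 1403 to 2482 in healthy control (median 2071). Its log2 fold change was -0.39 ± 0.16 in RYGB against healthy control (limma adjusted p = 0.147) and -0.36 ± 0.16 in disease against healthy control (limma adjusted p = 0.418), with -0.03 ± 0.16 in RYGB against disease (limma adjusted p = 0.934). Derl1, a membrane protein of the retrotranslocation complex, and Os9, a lectin that recognises trimmed glycans on misfolded proteins, lay close to 0. Derl1 had a log2 fold change of 0.11 ± 0.10 in RYGB against disease (limma adjusted p = 0.581). Os9 had one of 0.07 ± 0.15 in disease against healthy control (limma adjusted p = 0.904) and 3811 to 6597 normalised reads in disease, against 3785 to 6466 in healthy control.

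Among the sensors and regulators, Xbp1 had 2562 to 3617 normalised reads in RYGB (median 3273), 1403 to 2769 in disease (median 2269) and 2299 to 3612 in healthy control (median 2899.7). RYGB and disease overlapped only through the lowest RYGB library and the 3 highest disease libraries. RYGB against disease had a log2 fold change of 0.56 ± 0.17, or 1.47-fold with a 95% interval of 1.15 to 1.89 (limma adjusted p = 0.0697). It was called by DESeq2 (adjusted p = 0.0406) and by limma without disease replicate 5 (adjusted p = 0.0396), disease replicate 3 (0.043) or RYGB replicate 3 (0.0465). With the share of reads outside genes as a covariate it was 0.34 (limma adjusted p = 0.292), and without the 3 libraries with the most such reads 0.35 (limma adjusted p = 0.36), so that the adjusted p ranged from 0.0396 to 0.36 over 28 settings. Disease against healthy control stood at -0.42 ± 0.17 (limma adjusted p = 0.334), and RYGB against healthy control at 0.14 ± 0.17 (limma adjusted p = 0.604). The disease against healthy control value was -0.45 with the covariate (limma adjusted p = 0.0908) and -0.27 without the 3 libraries (limma adjusted p = 0.73).

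Xbp1 is also high in plasma cells. Of 12 plasma cell markers, 6 were in the table, and Xbp1 itself made up most of their sum. The other 5 summed to 86.3 to 144 normalised reads in RYGB (median 125), 85.0 to 199.9 in disease (median 133) and 93.2 to 204 in healthy control (median 141). These sums overlapped between groups. Most of each sum was Prdm1, with medians of 94.8 in RYGB, 91.4 in disease and 103 in healthy control. The sums therefore say little of the remaining markers. The filter passed 4 of the 6, Xbp1 included, and limma called none in any comparison. Pou2af1, a B cell transcription coactivator, had a median of 10.3 in RYGB, 25.2 in disease and 13 in healthy control, and its log2 fold change in RYGB against disease was -1.08 ± 0.42 (limma adjusted p = 0.146). The defining markers Mzb1 and Tnfrsf17 were at or near 0 and Jchain was low. Mzb1 had 0 to 7.62 normalised reads in RYGB, 0 to 2.13 in disease and 0.764 to 3.59 in healthy control. Tnfrsf17 had 0 to 1.5 in RYGB, 0 to 2.13 in disease and 0 to 2.52 in healthy control. Jchain had 13.1 to 24 in RYGB, 7.47 to 25 in disease and 4.91 to 23.5 in healthy control.

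Ern1, which encodes the IRE1 kinase and nuclease that splices Xbp1, had 198 to 342 normalised reads in RYGB (median 278), 142 to 309.9 in disease (median 192) and 198 to 295 in healthy control (median 211). The groups overlapped widely, and the log2 fold change of RYGB against disease was 0.44 ± 0.20 (limma adjusted p = 0.21). Eif2ak3, which encodes PERK, had 761 to 1084 normalised reads in RYGB (median 881), 774 to 1029 in disease (median 885) and 1013 to 1136 in healthy control (median 1088). RYGB replicate 3 and disease replicate 6 alone reached into the healthy control range. For Eif2ak3 the log2 fold change was -0.29 ± 0.09 in RYGB against healthy control (limma adjusted p = 0.0818) and -0.28 ± 0.09 in disease against healthy control (limma adjusted p = 0.199). RYGB against disease was -0.0020 ± 0.09 (limma adjusted p = 0.992), with a 95% interval of -0.20 to 0.20.

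Eif2ak3 in RYGB against healthy control was called by DESeq2 (adjusted p = 0.0374) and by limma without RYGB replicate 3 (adjusted p = 0.0291), in a range of 0.0291 to 0.315 over 28 settings. Atf6 had 1192 to 1999.7 normalised reads in RYGB (median 1594), 1236 to 2162 in disease (median 1425) and 1177 to 2175 in healthy control (median 1923). Its groups overlapped over nearly their whole range, and its log2 fold change of disease against healthy control was -0.31 ± 0.17 (limma adjusted p = 0.526).

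Of the ATF4-CHOP branch, none of the 5 tested members passed the threshold in either direction, and Chac1 lay below the filter. Atf4, the transcription factor that PERK favours, had 2817 to 3799 normalised reads in RYGB (median 3134), 3164 to 4128 in disease (median 3253) and 3306 to 4217 in healthy control (median 3407). Its log2 fold change of disease against healthy control was -0.05 ± 0.10, with a 95% interval of -0.25 to 0.16 (limma adjusted p = 0.907). Ddit3, which encodes CHOP, had 454 to 687 normalised reads in RYGB (median 531), 449 to 784 in disease (median 558) and 560.1 to 827 in healthy control (median 626). Both factors overlapped across all groups. For Ddit3 the log2 fold change was -0.23 ± 0.14 in RYGB against healthy control (limma adjusted p = 0.287) and -0.20 ± 0.14 in disease against healthy control, with a 95% interval of -0.49 to 0.08 (limma adjusted p = 0.63).

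Ppp1r15a encodes GADD34, which directs the phosphatase that reverses the PERK signal. It had 527 to 885 normalised reads in RYGB (median 765), 512 to 577 in disease (median 531) and 524 to 957 in healthy control (median 778). All disease libraries lay in a narrow band at the low end of the range of the other groups. Ppp1r15a had a log2 fold change of 0.42 ± 0.15 in RYGB against disease (limma adjusted p = 0.119) and -0.42 ± 0.15 in disease against healthy control (limma adjusted p = 0.232). RYGB against healthy control was at -0.0036 ± 0.15 (limma adjusted p = 0.992). Immediate-early genes, which respond to tissue handling as well as to signals, moved alongside: their median log2 fold change was 0.56 in RYGB against disease, with 2 of 14 called higher (Junb and Jun), and -0.49 in disease against healthy control, with 14 of 14 negative and none called. Their summed level was 10881 to 37277 in RYGB, 8394 to 14097 in disease and 10853 to 27969.5 in healthy control, and their part in the Ppp1r15a values was not tested.

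Of the lower-valued members of the branch, Trib3, a pseudokinase induced by CHOP, had 11.4 to 24 normalised reads in RYGB (median 17), 6.79 to 40.1 in disease (median 21.2) and 12.3 to 25.2 in healthy control (median 13.5). The disease libraries held both the lowest and the highest of the 18 values. Disease against healthy control had a log2 fold change of 0.35 ± 0.33 (limma adjusted p = 0.744), and that of RYGB against disease was -0.26 ± 0.33 (limma adjusted p = 0.688). Single libraries moved both values: without disease replicate 5 they were 0.16 and -0.06, and without disease replicate 6 they were 0.64 and -0.54. Without the 3 libraries with the most reads outside genes they were 0.08 and -0.03. Asns, asparagine synthetase and an ATF4 target, had 168 to 324 normalised reads in RYGB (median 229), 171 to 277 in disease (median 239.8) and 184 to 229 in healthy control (median 211). In RYGB against healthy control it stood at 0.11 ± 0.15 (limma adjusted p = 0.645). Chac1, a glutathione-degrading enzyme downstream of ATF4, had 1.09 to 4.57 normalised reads in RYGB (median 2.9), 2.81 to 9.97 in disease (median 7.7) and 1.53 to 4.38 in healthy control (median 2.49), and was not tested.

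Ordered by group means, 10 of the 16 folding members ran healthy control, disease, RYGB from high to low, and a further 4 ran healthy control, RYGB, disease. The degradation members Herpud1, Syvn1 and Derl1, with Xbp1, Ern1 and P4hb, were highest in RYGB and lowest in disease. No step between group means in these orders passed the limma test.

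A few libraries stood at the ends of the range for many folding members at once. Disease replicate 6 held the highest value of all 18 libraries in 7 of the 16 folding members, RYGB replicate 2 the lowest in 7 and disease replicate 2 the lowest in 5. The median deviation of the folding members from their all-library means, on the log2 scale, was between -0.51 and 0.16 in RYGB, between -0.31 and 0.35 in disease and between 0.0053 and 0.33 in healthy control. In all 6 healthy control libraries the median folding member was thus above its all-library mean. For the ATF4-CHOP branch the same measure was between -0.30 and 0.30 in RYGB, -0.31 and -0.03 in disease, and -0.04 and 0.33 in healthy control.

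**Figure D3:**
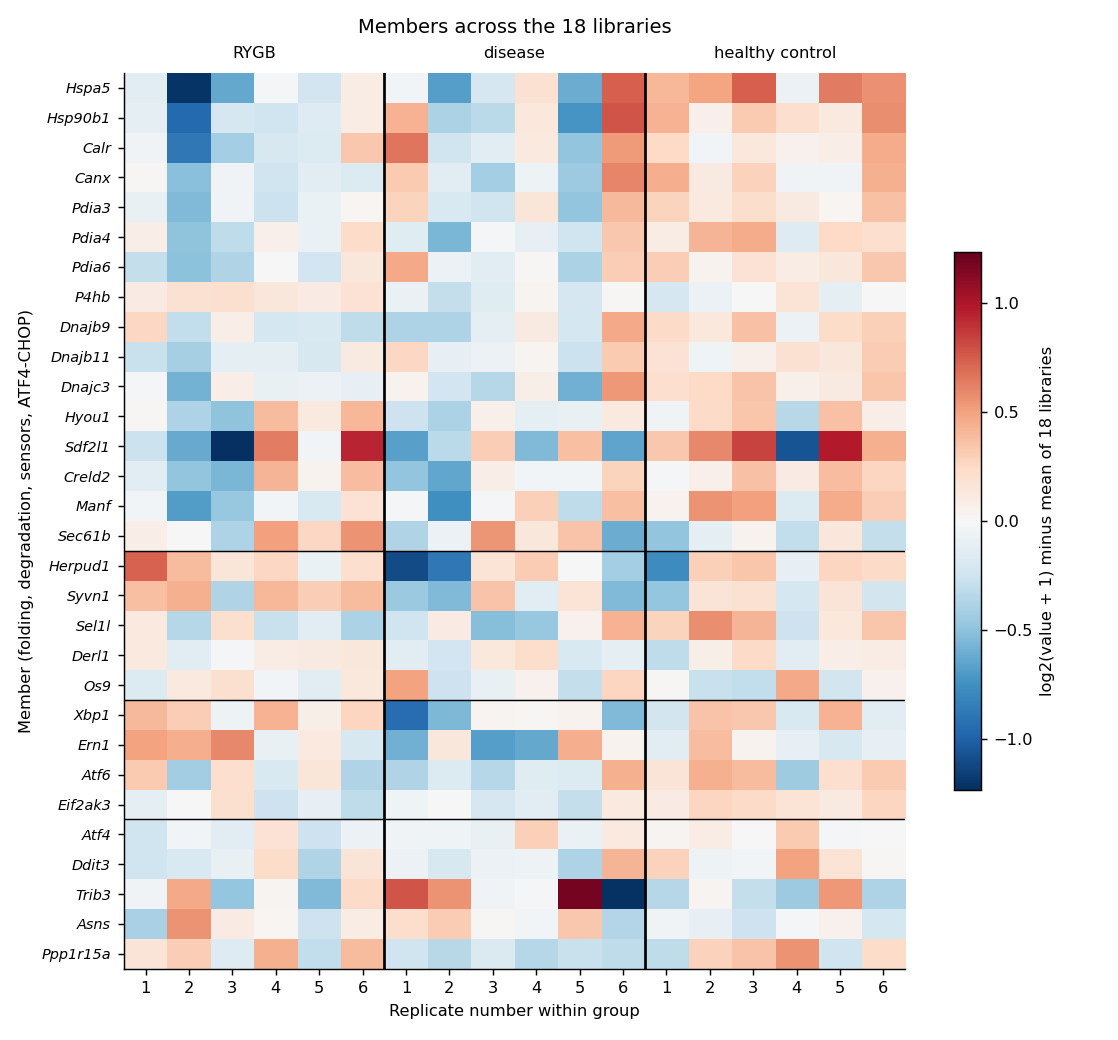
Log2(value + 1) minus the mean of all 18 libraries (colour) for the 30 tested members (rows, by role) in each library (columns, by group and replicate number). Disease replicate 6 is high and RYGB replicate 2 low over the chaperones at the top, while disease replicate 6 is low for Trib3 and Asns near the bottom.

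After removal of the group means, deviations of pairs of folding members correlated with a median r of 0.49 over 120 pairs, in a range of -0.69 to 0.97. Between the folding group and the ATF4-CHOP branch the median was -0.04 over 80 pairs, between folding and sensors -0.05 over 64 pairs, and between folding and degradation 0.20 over 80 pairs. These values are descriptions over 18 libraries that share their normalisation and differ in depth. Chosen relations were tested by permutation within groups (100000 permutations, 12 relations, Benjamini-Hochberg adjustment).

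Hspa5 and Hsp90b1 deviated together, with Pearson's r = 0.81 (permutation p = 0.00081, adjusted p = 0.00209) and Spearman's rho = 0.68 (permutation p = 0.00668, adjusted p = 0.0134). Without RYGB replicate 2 and disease replicate 6, the libraries farthest from the median of Hspa5, r was 0.57 (permutation p = 0.0611), so the relation rests in part on them. It was 0.90 within RYGB, 0.91 within disease and 0.13 within healthy control. Hspa5 also went with Hsph1, a cytosolic chaperone of the heat shock response that lies outside the ER: r = 0.94 (permutation p = 6e-05, adjusted p = 0.0006) and rho = 0.82 (permutation p = 0.00042, adjusted p = 0.00252). That relation remained without the same libraries (r = 0.85, permutation p = 0.00045) and was 0.95 within RYGB, 0.97 within disease and 0.85 within healthy control. Whether both relations differ was not tested.

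Hspa5 was not related past the threshold to Ddit3 (r = 0.39, rho = 0.33, permutation p = 0.152 and 0.208, adjusted p = 0.203 and 0.277), to Atf4 (r = 0.08, rho = 0.15, permutation p = 0.759 and 0.593, adjusted p = 0.759 and 0.593) or to Herpud1 (r = 0.13, rho = 0.22, permutation p = 0.665 and 0.421, adjusted p = 0.726 and 0.459). Within groups, Hspa5 and Ddit3 stood at r = 0.42 in RYGB, 0.92 in disease and -0.83 in healthy control. Ddit3 and its target Trib3 had r = -0.46 and rho = -0.23 (permutation p = 0.0935 and 0.399, adjusted p = 0.14 and 0.459), and r was -0.01 without disease replicate 6 and healthy control replicate 4.

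Herpud1, Xbp1 and Syvn1 varied with a measure of the libraries, the share of reads outside genes. These relations were examined after their values were seen. Of the other members only Hspa5 was set against this share, so the relations are not shown to be particular to these genes. With the share as a covariate, limma called 165 of all genes in RYGB against disease, against 552 without it. The share went partly with group, so the covariate can also take away group differences. The share of reads outside genes correlated with Herpud1 at r = -0.88 and rho = -0.82 (permutation p = 0.00044 and 0.00069, adjusted p = 0.00176 and 0.00276), with r = -0.74 without healthy control replicate 1 and disease replicate 1. Within groups it was -0.31 in RYGB, -0.99 in disease and -0.94 in healthy control. Xbp1 had r = -0.72 and rho = -0.70 (permutation p = 0.00087 and 0.00598, adjusted p = 0.00209 and 0.0134) and Syvn1 r = -0.69 and rho = -0.65 (permutation p = 0.00262 and 0.0112, adjusted p = 0.00524 and 0.0192). Without the same libraries r was -0.61 for Xbp1 and -0.64 for Syvn1. Hspa5 was not related to it past the threshold (r = -0.30, rho = -0.40, permutation p = 0.233 and 0.123, adjusted p = 0.279 and 0.184). Herpud1 and Xbp1 also went together (r = 0.84, rho = 0.85, permutation p = 0.0001 and 0.00016, adjusted p = 0.0006 and 0.00192), as did Herpud1 and Syvn1 (r = 0.68, rho = 0.74, permutation p = 0.00624 and 0.0026, adjusted p = 0.0107 and 0.0078).

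**Figure D4:**
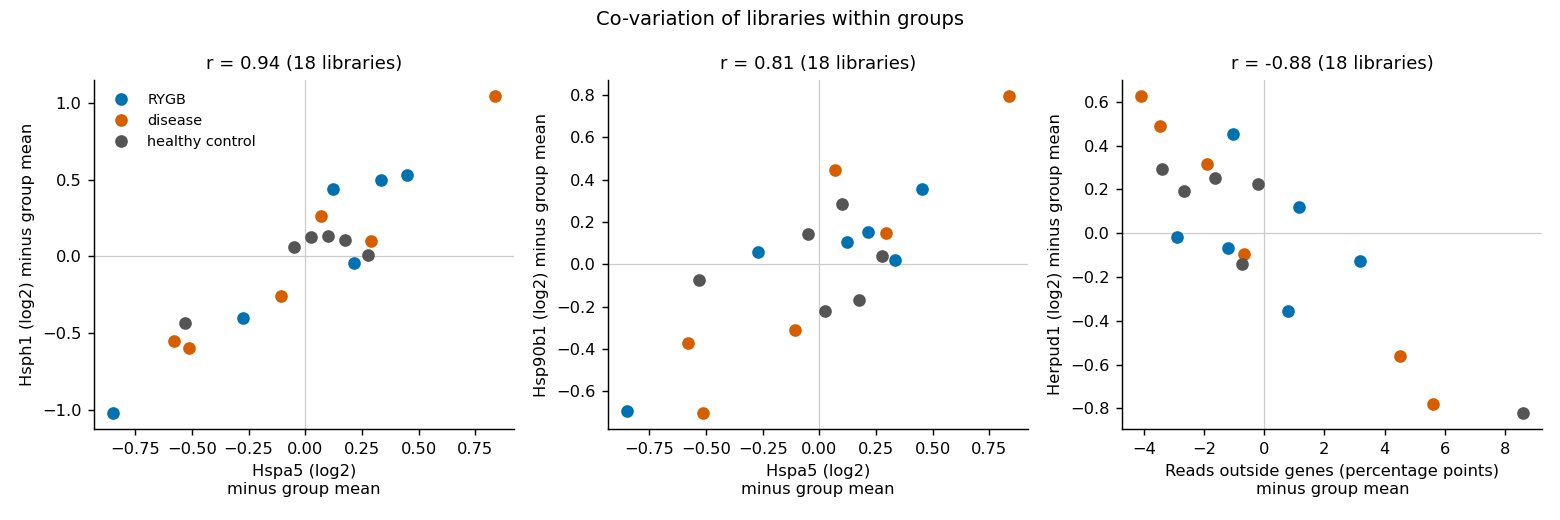
Deviations of each library from its group mean for Hsph1 against Hspa5, Hsp90b1 against Hspa5 (both log2) and Herpud1 (log2) against the share of reads outside genes (percentage points); points are the 18 libraries, coloured by group. Pearson's r is 0.94, 0.81 and -0.88, and the left and middle panels extend to RYGB replicate 2 at the low end and disease replicate 6 at the high end.

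Other genes of the pathway showed as few calls. Over all genes, limma called 1.61% in disease against healthy control, 3.95% in RYGB against disease and 4.44% in RYGB against healthy control. In lists of this size, the counts that follow are close to those shares. In the 33 tested genes of wider ER folding and translocation, limma called 0 in every comparison, with medians of 0.0080 in RYGB against disease, -0.06 in RYGB against healthy control and -0.03 in disease against healthy control. None of 18 further degradation genes and none of 12 further sensors and regulators was called either. Among 31 further genes of the ATF4-CHOP and amino acid response, 1 was called. Cth, the cystathionine lyase of cysteine synthesis, was higher in RYGB, at 6465 ± 2044 normalised reads in RYGB and 4095 ± 505 in disease (SD, n = 6 each, log2 fold change 0.61 ± 0.16, limma adjusted p = 0.0413).

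Of 13 cytosolic heat shock genes, Hspa4l was called lower in RYGB against disease, at 401 ± 55.4 normalised reads in RYGB and 632 ± 159.8 in disease (SD, n = 6 each, log2 fold change -0.62 ± 0.17, limma adjusted p = 0.0413). Hsph1 averaged 3165 ± 1168 in RYGB, 4945 ± 2392 in disease and 5133 ± 695 in healthy control (SD, n = 6 each). Its log2 fold change was -0.79 ± 0.27 in RYGB against healthy control (limma adjusted p = 0.0877). The heat shock list had a median of -0.11 in RYGB against disease (10 of 13 negative), -0.25 in RYGB against healthy control (8 of 13) and 0.0034 in disease against healthy control (6 of 13). Its summed level was 78337 to 128082 in RYGB, 83407 to 194752 in disease and 124572 to 152170 in healthy control.

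Markers of some other cell types were called between the groups, and those of others were not. The shares over all genes were 1.61% in disease against healthy control, 3.95% in RYGB against disease and 4.44% in RYGB against healthy control. In disease against healthy control, 6 of 11 tested tubular injury markers were called higher and 1 lower, with summed levels of 26721 to 52324 in disease and 13398 to 21688 in healthy control. In RYGB against disease 1 was called higher and 4 lower, with a summed level of 17963 to 20963 in RYGB. Of the 5 thick ascending limb markers tested, Cldn10 and Umod were called lower in disease against healthy control, and Cldn19, Umod and Cldn10 were called higher in RYGB against disease. The summed level of this segment was 47094 to 121463 in RYGB, 24809 to 73790 in disease and 76103 to 100670 in healthy control. The part of these cell types in the Xbp1 and Herpud1 values, which were likewise lowest in disease, was not tested. Fibroblast markers were called lower in RYGB, 5 of 8 against disease and 4 of 8 against healthy control. Of 11 macrophage markers tested, 2 were called higher in disease against healthy control and 2 lower in RYGB against disease. In RYGB against healthy control 1 was called higher and 1 lower. The summed level of these macrophage markers was 7548 to 10782.5 in RYGB, 8537 to 11001 in disease and 5598 to 7723 in healthy control. None of 6 podocyte markers was called in any comparison, and their summed level had medians of 18069 in RYGB, 19450 in disease and 19419 in healthy control. Of 5 endothelial markers tested, 2 were called lower in RYGB against healthy control and 1 in disease against healthy control, with median sums of 8506 in RYGB, 8120 in disease and 9858 in healthy control. The part of these markers in the values of Hspa5 and the other chaperones was not tested either.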

How the data were processed

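Kidney cortex messenger RNA of 18 rat libraries, 6 per group, was measured, with a stranded kit per the labels' protocols. The deposited table holds a signal per gene: the authors divided each read count by a size factor of its library. FastQC 0.11.2, MultiQC 0.9, HTSeq 0.6.1p1, DESeq2 (no version listed) and the build Rnor 5.0 are named, per the submitters' processing notes. The sources used here give no aligner, annotation release or strand setting of counting, so overlapping and antisense genes are uncertain. Of the deposited rows, 3 name no gene, held 45.05 to 58.52% of counted reads and were left out.

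Values were tested on the log2(value + 1) scale in limma 3.58.1 (under R 4.3.3, prior variance following mean expression). The 13988 genes with 10 or more normalised reads in 6 or more libraries entered 1 fit of 3 group means over 18 libraries (15 residual degrees of freedom). P-values are two-sided and adjusted by Benjamini-Hochberg within a comparison. Fold changes are on this scale and understate the change of low genes. Whole reads were recovered from the steps of the values (at least 99.97% of a library's values above 0 came out whole within 0.01 reads), and edgeR 4.0.16 and DESeq2 1.42.0 on those reads were alternatives. They called 224 and 410 genes in disease against healthy control, 629 and 1098 in RYGB against disease, and 846 and 1602 in RYGB against healthy control. The limma, edgeR and DESeq2 steps were tested on simulated data with known changes. All libraries within a group differed by more than sampling noise (chi-square per degree of freedom of at least 21.4).

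Libraries were grouped by their titles. Libraries of disease and healthy control with the same replicate number had correlated deviations (0.131 to 0.325), and numbers were taken to pair those groups only. This pairing is uncertain, since the same-numbered library was the best match for replicates 2 and 6 only. Between RYGB and the others the correlations ran from -0.557 to 0.309. The highest, for replicate 2 of RYGB and disease, was also a best match. The limma fit of 3 group means used no pairing. The members and all lists were chosen with earlier results of these data known. Every member is named, with values for each library group where its groups did not overlap or where it had the highest or lowest fold change of its role, and up to 3 called genes per other list. Values of further members, such as those with an unadjusted p below 0.05, were added after their values were seen. Promoters came from RefSeq (GRCr8), while the counts rest on another build.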

Additional observations from a re-analysis of the deposited data

Results flagged for a closer look

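Each of 93 sets of 6 libraries (31 members in 3 groups) was searched for a highest or lowest library set far apart from the rest of its group, for which chance flags about 1 in 20 sets. The search found 6. Dnajc3 was low in RYGB replicate 2, at 1239.9 normalised reads, against 1738 in the nearest library of the group. Syvn1 was low in RYGB replicate 3, at 986, against 1579 in the nearest. Atf6 was high in disease replicate 6, at 2162, against 1445, and Ddit3 was high in the same library, at 784, against 561. Atf4 was high in healthy control replicate 4, at 4217, against 3595. Ern1 was high in healthy control replicate 2, at 295, against 233.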

How the results depend on the processing

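Of 1074 alternative values for 38 gene results, 1035 kept direction and side of the threshold, 22 gained a call and 17, in Os9, Sel1l and Eif2ak3, changed sign. Os9 in disease against healthy control was between -0.0228 and 0.174 with 1 library left out. Sel1l in RYGB against disease was between -0.114 and 0.0756, and 0.021 with reads outside genes as a covariate. Eif2ak3 in RYGB against disease was between -0.0604 and 0.0417, and 0.0184 in edgeR, 0.0056 in DESeq2, 0.0347 with that covariate and 0.0331 without the 3 libraries with the most such reads. The median of degradation members in RYGB against healthy control was -0.0941 with the covariate, and r of Hspa5 with Hsp90b1 was 0.572 without the 2 farthest libraries. Members called higher in RYGB against disease numbered 2 in DESeq2 and 0 to 2 with 1 library left out. Members called lower in RYGB against healthy control numbered 2 in DESeq2, 4 under quantile normalisation and 4 with the groups fitted alone. They numbered 1 with the replicate block (Hspa5, limma adjusted p = 0.0462) and 0 to 1 with 1 library left out. The block spanned all 3 groups, although the numbers were not taken to pair RYGB. Totals over all genes under quantile normalisation and with the block are not given here. The replicate block changed no other call of a member. The same held within healthy control and disease alone, where the numbers were taken to pair the libraries, a pairing that is not established. All genes called in disease against healthy control numbered 143 at a minimum of 50, 410 in DESeq2, 76 without the 3 libraries and 124 to 310 with 1 left out. In RYGB against disease there were 1098 in DESeq2, 165 with the covariate, 137 without the 3 libraries and 259 to 817 with 1 left out. In RYGB against healthy control there were 1602 in DESeq2, 1442 with the groups fitted alone, 134 with the covariate, 192 without the 3 libraries and 203 to 1501 with 1 left out. The covariate and the removal of 3 libraries were added after the data were seen, and the removal leaves fewer libraries. Both can also take away part of a group difference, since the share differed between groups. The cause of the other differences was not tested. With 6 libraries per group, depth limits the statements on Trib3 and Chac1 most.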
